A study of Mus musculus with 40 samples.

Results

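Genes for methylmalonyl-CoA and propionyl-CoA turnover were followed in the bacteria of the mouse cecum. Members were the features whose symbol, without a trailing copy number, was mutA, mutB, mce, scpA, pduP or pccB in the count tables of 5 bacteria, named in the deposit as D.muris, X.muris, Acetatifactor, L.bacterium335 and F.rodentium. This gave 10 members among 18455 features of all 6 tables, the other table being that of Alistipes, and among 16742 features of those 5. D.muris held mutB and pccB, and X.muris held mutA, mce and scpA. Acetatifactor and L.bacterium335 each held pccB and scpA, F.rodentium held scpA, and pduP had 0 rows. No table listed both mutA and mutB, so no complete pair of mutase subunits could be followed by symbol in 1 bacterium.

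Propionate is a short-chain fatty acid that gut bacteria release and the host takes up. In the succinate route, phosphoenolpyruvate is carboxylated and passed through malate and fumarate to succinyl-CoA, which methylmalonyl-CoA mutase, a cobalamin-dependent enzyme, rearranges to methylmalonyl-CoA. An epimerase converts between the stereoisomers of methylmalonyl-CoA, and a biotin-dependent decarboxylase or carboxyltransferase then gives propionyl-CoA, the precursor of propionate. The same reactions can run in reverse and consume propionate.

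The genes mutA and mutB name the small and large subunits of the mutase, and mce its partner epimerase, although mce is also a symbol of the unrelated mammalian cell entry proteins. The gene pccB names the beta chain of propionyl-CoA carboxylase, which belongs to a family that also holds a subunit of methylmalonyl-CoA decarboxylase. The product of pduP, propionaldehyde dehydrogenase, serves the propanediol route. The symbol scpA is ambiguous: in some bacteria it names methylmalonyl-CoA mutase, and in others segregation and condensation protein A, which acts with scpB and smc on chromosomes. The tables carried no product names, so these names could not be checked. The partner scpB was listed once each in Acetatifactor, F.rodentium and L.bacterium335, with 14, 4 and 2 copies of smc, whereas X.muris, which also had an scpA, listed 0 copies of scpB and 0 of smc.

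The mice were C57BL/6 animals, 3 weeks old at the outset, that ate the Total Western Diet, a diet built on Western nutrient intakes, for 6 weeks. For the next 3 weeks they stayed on it in 4 groups, in which broccoli powder made up none (0%), 0.5%, 1% or 2.5% of the food. RNA of the cecal contents, depleted of ribosomal RNA, gave 10 libraries per group and 40 in all. Totals over the 6 tables ran from 236483 to 5107200 counts, with a median of 825724. Changes within a genome were tested with edgeR on libraries holding at least 10000 counts of that genome, so each value is relative to the other transcripts of that bacterium. Levels are given per 1000000 counts of the genome after normalisation (CPM), and changes as log2 fold change ± SE against 0%, called at an adjusted p under 0.05. All comparisons shared the 0% libraries.

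The 0% libraries stood apart in 3 genomes. The 5 most counted features held a median of 18.1% of the L.bacterium335 counts at 2.5% and 76.8% at 0%, 53.3% and 89.9% of the X.muris counts, and 28.7% and 56.8% of the Acetatifactor counts. In D.muris these medians were 6.81% and 11.6%, and in F.rodentium 16.4% and 15.6%. Whether the few other counts of L.bacterium335, X.muris and Acetatifactor at 0% came from those bacteria was not tested.

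Of the 8 members with enough counts to be tested, edgeR called 3 higher and 1 lower at 2.5% broccoli. The large mutase subunit gene mutB of D.muris fell, in a genome where 6.68% of features were called lower, and mce of X.muris rose, where 9.55% were called higher. The others were pccB of Acetatifactor and of L.bacterium335, in genomes where 54.5% and 77.8% of all features were called higher, so these calls say little about pccB itself. Both pccB genes had few counts at 0% and passed the low-count filter through the broccoli groups. So did mce and mutA of X.muris, with 14 and 18 counts at 0%. The 2 pccB genes were also the members called at 1% and for the slope over the 4 diets. That of L.bacterium335 was the 1 called at 0.5%.

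The mutase gene of D.muris was well covered, with sums of 964, 1549, 2227 and 2624 raw mutB counts at 0%, 0.5%, 1% and 2.5%. Its level ran from 3463 to 5666 CPM at 0% with a median of 4645, and from 1696 to 6098 CPM at 0.5% with a median of 3597. It ran from 2792 to 5071 CPM at 1% with a median of 4051, and from 1799 to 3803 CPM at 2.5% with a median of 2952. All 9 of the 2.5% libraries lay below the 0% mean, but the ranges overlapped. The mean was 2977 ± 611 CPM at 2.5% and 4386 ± 805 CPM at 0% (SD, n = 9 each).

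At 2.5%, mutB fell by 0.56 ± 0.18 on the log2 scale, a fold of 0.678 with a 95% interval of 0.528 to 0.871 (edgeR, adjusted p = 0.0400). D.muris was called lower in 6.68% of its 1108 tested features at this dose and higher in 3.88%. The median change of all of them was 0.08, and that of mutB lay at percentile 12.5 of them. The change was -0.25 ± 0.18 at 0.5% (edgeR, adjusted p = 0.582) and -0.16 ± 0.18 at 1% (adjusted p = 0.749), where 4.96% and 6.23% of features were called in either direction. The slope was -0.20 ± 0.07 per percent broccoli and missed the threshold (edgeR, adjusted p = 0.0588), beside 8.3% of features called. The call at 2.5% was lost in 6 of the 9 alternatives tried, among them DESeq2 with an adjusted p of 0.121, and in 15 of the 40 fits that left out 1 library, with adjusted p up to 0.107. Those libraries were replicates 1, 6, 7, 8 and 9 at 0%, replicate 8 at 0.5%, replicates 2 and 5 at 1%, and replicates 1, 3, 4, 6, 7, 8 and 10 at 2.5%. The change stayed negative in all of these fits.

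**Figure D1:**
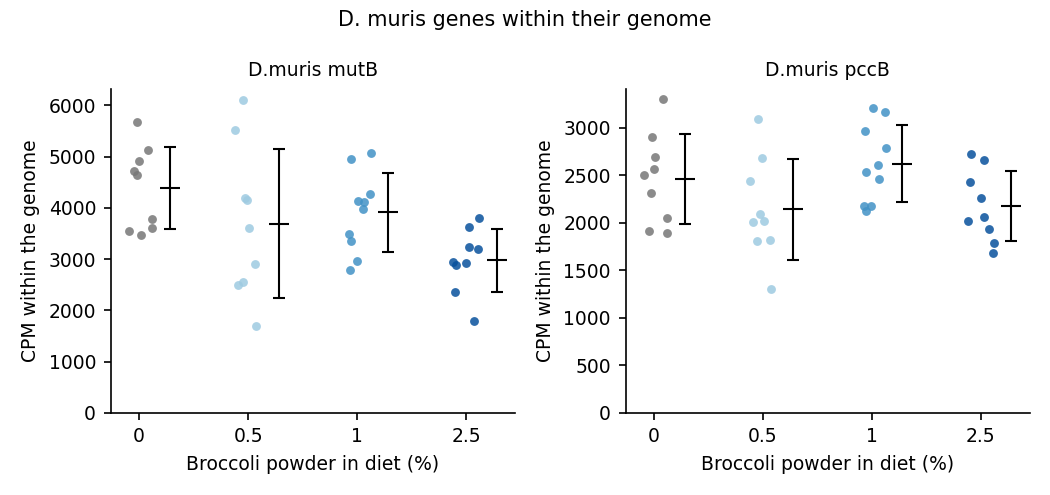
Level of mutB and pccB in D.muris, in CPM of the D.muris counts (y axis), by percent broccoli powder in the diet (x axis); each point is 1 library and the bars give the mean ± SD. The mutB points at 2.5% lie between 1799 and 3803 CPM, all below the 0% mean of 4386 CPM, while those of pccB overlap across the 4 diets.

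The small mutase subunit gene mutA of X.muris was sparse where broccoli was low, with 18, 92, 260 and 811 raw counts at 0%, 0.5%, 1% and 2.5%. Its lowest, median and highest levels were 0, 155 and 678 CPM at 0%, and 0, 248 and 487 CPM at 0.5%. They were 208, 430 and 633 CPM at 1%, and 218, 400 and 564 CPM at 2.5%. The highest 0% library lay above every 2.5% library, and the groups overlapped. The change was 0.63 ± 0.59 at 0.5% (edgeR, adjusted p = 0.724), 1.18 ± 0.54 at 1% (adjusted p = 0.202) and 1.03 ± 0.53 at 2.5% (adjusted p = 0.225). The slope was 0.21 ± 0.16 (edgeR, adjusted p = 0.488). DESeq2 on the same libraries called mutA at 1% with 1.54 and at 2.5% with 1.63, and also its slope with 0.42.

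The epimerase gene mce of X.muris rose at 2.5%. Raw counts summed to 14, 63, 148 and 793 at 0%, 0.5%, 1% and 2.5%. Levels ran from 0 to 244 CPM at 0% with a median of 77.6, from 0 to 382 CPM at 0.5% with a median of 248, and from 0 to 427 CPM at 1% with a median of 177. At 2.5% they ran from 227 to 564 CPM with a median of 356. All 9 of the 2.5% libraries lay above the 0% mean of 98.1 CPM, and only the lowest of them fell inside the 0% range.

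The change of mce at 2.5% was 1.65 ± 0.58, a fold of 3.14 with a 95% interval of 1.42 to 6.91 (edgeR, adjusted p = 0.0466). In X.muris 9.55% of 670 tested features were called higher at this dose and 1.49% lower, and the median change was 0.51. The change of mce lay at percentile 90.1 of its genome. As mce passed the low-count filter through the broccoli groups, its call is given as a description. The change was 1.07 ± 0.65 at 0.5% (edgeR, adjusted p = 0.488) and 0.88 ± 0.60 at 1% (adjusted p = 0.443). At 0.5% edgeR called 0% of X.muris features, with 89 at an unadjusted p under 0.05 and 17 called by DESeq2, and at 1% it called 6.57%. The slope of mce was 0.48 ± 0.17 (edgeR, adjusted p = 0.0608), beside 7.31% of features called. The 2.5% call was lost with RLE factors (1.42, adjusted p = 0.126), without libraries 76 to 81 (adjusted p = 0.0548), with the X.muris total as a covariate (0.63, adjusted p = 0.788) and in 23 of 40 fits that left out 1 library. These were replicates 1, 2, 3, 6, 7 and 9 at 0%, 2, 3, 4, 5 and 10 at 0.5%, 3, 4, 8 and 9 at 1%, and all but replicate 5 of the 9 kept at 2.5%, with adjusted p up to 0.122.

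**Figure D2:**
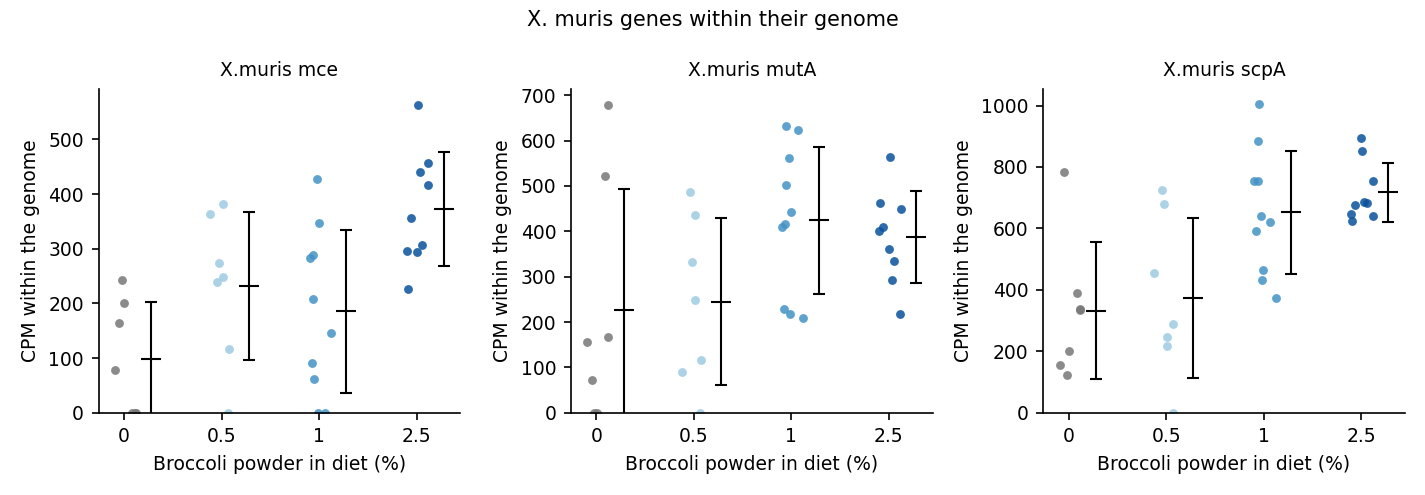
Level of mce, mutA and scpA in X.muris, in CPM of the X.muris counts (y axis), by percent broccoli powder (x axis); points are the libraries with at least 10000 X.muris counts and bars give the mean ± SD, drawn from 0. The 2.5% points of mce lie between 227 and 564 CPM, above the 0% mean of 98.1 CPM, and the mutA and scpA groups overlap.

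The carboxylase gene pccB could be compared in 3 bacteria. In D.muris it was not called at any dose by edgeR. Its lowest, median and highest levels were 1893, 2503 and 3305 CPM at 0%, 1300, 2017 and 3093 CPM at 0.5%, 2118, 2571 and 3208 CPM at 1%, and 1686, 2056 and 2725 CPM at 2.5%. The groups overlapped throughout. The change was -0.21 ± 0.15 at 0.5% (edgeR, adjusted p = 0.582), 0.08 ± 0.15 at 1% (adjusted p = 0.864) and -0.18 ± 0.15 at 2.5% (adjusted p = 0.514), the last with a fold interval of 0.716 to 1.08. The slope was -0.05 ± 0.06 (edgeR, adjusted p = 0.696).

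In L.bacterium335, pccB was all but missing without broccoli. Its 4 raw counts at 0% lay in replicate 3, with 3, and replicate 7, with 1, against sums of 455, 972 and 5642 at 0.5%, 1% and 2.5%. Lowest, median and highest levels were 0, 0 and 46.6 CPM at 0%, 77.2, 388 and 709 CPM at 0.5%, 0, 303 and 800 CPM at 1%, and 0, 691 and 1139 CPM at 2.5%. At 0.5% every library exceeded every 0% library. At 1% and 2.5% the ranges touched only because replicate 9 of each had 0 counts of pccB.

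Since L.bacterium335 pccB entered the fit through the broccoli groups, its fitted changes had to be high and are given as a description, with no test: 6.22 at 0.5%, 6.03 at 1% and 6.94 at 2.5%, sizes that depend on the prior count. The genome moved with it: 80.1% and 79.9% of 1384 features were called in either direction at 0.5% and 1%, 77.8% higher and 15% lower at 2.5%, and 46.1% for the slope, and the median change at 2.5% was 7.94. The change of pccB at 2.5% lay at percentile 29.6 of its genome. Without 0% replicate 3 the 2.5% change was 8.61, with the genome total as a covariate 4.92, and with RLE factors 9.58. In fits of only the dose group and 0% the filter removed the gene.

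In Acetatifactor, pccB summed to 18, 80, 297 and 552 counts at 0%, 0.5%, 1% and 2.5%. Lowest, median and highest levels were 0, 0 and 344 CPM at 0%, 0, 102 and 503 CPM at 0.5%, 119, 416 and 623 CPM at 1%, and 59.9, 407 and 494 CPM at 2.5%. All 10 libraries at 1% and 9 of 10 at 2.5% exceeded the 0% mean of 78.6 CPM. This gene too was removed by the filter in fits of only the dose group and 0%. As it entered the fit of all groups through the broccoli groups, its changes are given as a description and its calls not as support. These changes were 2.32 ± 0.74 at 1% (edgeR, adjusted p = 0.00780) and 2.16 ± 0.74 at 2.5% (adjusted p = 0.00819). The slope was 0.67 ± 0.30 (edgeR, adjusted p = 0.0449), and the change at 0.5% was 1.19 ± 0.75 (adjusted p = 0.225). Of 773 tested features, 25.1% were called at 0.5% and 67.8% at 1% in either direction, 54.5% higher and 22.5% lower at 2.5%, and 63.1% for the slope, with a median change of 1.81 at 2.5%. The slope lost its call in 36 of 40 fits that left out 1 library, with adjusted p up to 0.0920. The 2.5% call was lost with the Acetatifactor total as a covariate (1.60, adjusted p = 0.206), and RLE factors gave 4.21 at that dose, where they moved the median of all features to 3.84, and called the change at 0.5% with 2.14.

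**Figure D3:**
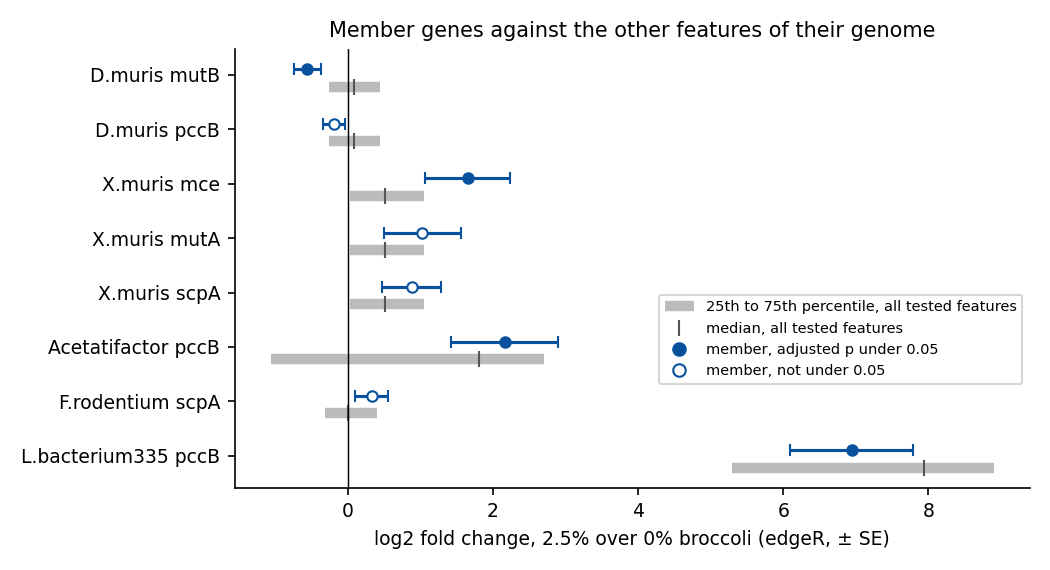
Log2 fold change (x axis) at 2.5% over 0% broccoli for the 8 tested members (blue, edgeR, ± SE; filled where adjusted p was under 0.05), each above a grey bar that spans the 25th to 75th percentile of all tested features of its bacterium. The mutB of D.muris at -0.56 and the mce of X.muris at 1.65 lie outside their grey bars, while the pccB genes of Acetatifactor and L.bacterium335 lie inside theirs.

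The ambiguous scpA was not called by edgeR in either bacterium where it could be tested. In X.muris its counts summed to 61, 147, 366 and 1495 at 0%, 0.5%, 1% and 2.5%, and lowest, median and highest levels were 122, 333 and 783 CPM at 0%, 0, 290 and 725 CPM at 0.5%, 375, 632 and 1004 CPM at 1%, and 623, 682 and 895 CPM at 2.5%. Only replicate 7 at 0% reached the 2.5% range. The change was 0.17 ± 0.45 at 0.5% (edgeR, adjusted p = 0.943), 0.74 ± 0.41 at 1% (adjusted p = 0.341) and 0.88 ± 0.41 at 2.5% (adjusted p = 0.171). The slope was 0.31 ± 0.14 (edgeR, adjusted p = 0.194). DESeq2 called scpA at 2.5% with 1.36 and its slope with 0.48, and at 0.5% the sign turned with RLE factors (-0.17).

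In F.rodentium, scpA summed to 1166, 2399, 780 and 285 counts at 0%, 0.5%, 1% and 2.5%. Lowest, median and highest levels were 93.0, 167 and 226 CPM at 0%, 131, 232 and 314 CPM at 0.5%, 44.2, 173 and 234 CPM at 1%, and 125, 229 and 276 CPM at 2.5%, and the groups overlapped. The change was 0.46 ± 0.20 at 0.5% (edgeR, adjusted p = 0.144), 0.01 ± 0.20 at 1% (adjusted p = 0.989) and 0.33 ± 0.23 at 2.5% (adjusted p = 0.378), with a slope of 0.07 ± 0.09 (adjusted p = 0.731). The single member was thus not called beside 8.47%, 0.474%, 5.39% higher and 4.03% lower of 1689 features at these doses, and 5.98% for the slope. The scpA of L.bacterium335 had 0, 3, 33 and 157 counts at 0%, 0.5%, 1% and 2.5% and was not tested within its genome. Against a floor of 3 counts over the 0% group its level was at least 5.88-fold higher at 2.5%. At this dose 77.8% of tested L.bacterium335 features were called higher, with a median log2 change of 7.94. The bound thus says little about scpA itself. The scpA of Acetatifactor had 0, 2, 18 and 16 counts and was also not tested.

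The share of member RNA was read per 1000000 counts of all 6 tables (total CPM), where fewer cells of a bacterium and less RNA per cell cannot be told apart. It is a share and not an amount, so it can rise where counts of another bacterium fall. Median F.rodentium counts per library were 511338 at 0% and 75068.5 at 2.5%. The part of this fall in the total CPM of the other bacteria was not tested. On this scale 1 of 9 members, the pccB of L.bacterium335, passed a permutation test at 0.5%, 7 at 1% and 9 at 2.5%, with p-values adjusted over all 10597 features of the 5 genomes that had at least 100 counts. Many other features passed too: 13.4%, 54.1% and 83.6% of them passed at these doses. At 2.5%, 98.7% of X.muris features passed as higher, 84.3% in L.bacterium335, 81.9% in Acetatifactor and 62.6% in D.muris, and 90.6% in F.rodentium passed as lower. Passing on this scale thus says little about the members themselves, and all but those of D.muris and F.rodentium reached 100 counts through the broccoli groups. The mutB of D.muris averaged 289 ± 95.7 total CPM at 1% and 241 ± 91.5 at 2.5%, against 143 ± 90.4 at 0% (SD, n = 10; permutation test, adjusted p = 0.00974 and 0.0334). It was above the 0% mean in 10 of 10 libraries at 1% and 9 of 10 at 2.5%, so at 2.5% mutB fell relative to the rest of D.muris while its share of all counted RNA rose. Adjusted over the 27 member tests alone, as all alternatives were, the 2.5% difference had an adjusted p of 0.0431 by permutation test. It lost its call on a log2 scale (permutation test, adjusted p = 0.0539), without the 5 most counted features of each genome (0.133), without libraries 76 to 81 (0.0680) and in 13 of 40 tests that left out 1 library, namely 0% replicates 1, 3, 5, 6, 7, 8, 9 and 10 and 2.5% replicates 1, 2, 6, 8 and 10 (up to 0.0750). The pccB of D.muris reached 185 ± 100 total CPM at 2.5%, against 77.8 ± 51.5 at 0% (permutation test, adjusted p = 0.00627).

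The 3 X.muris members had the lowest mean total CPM without broccoli and the highest at 2.5%. At 2.5% mce reached 68.9 ± 52.6 total CPM, against 0.999 ± 1.57 at 0% (SD, n = 10). The mutA gene reached 71.1 ± 49.4, against 2.55 ± 3.02. Both are given with no test, for their 14 and 18 counts at 0%. At 1% mce and mutA averaged 18.2 and 33.3 total CPM, and at 0.5% 6.77 and 10.02, where neither passed. The X.muris scpA reached 128 ± 85.1 total CPM at 2.5%, against 5.51 ± 6.40 at 0%. In the 2.5% replicate 9, X.muris had 2435 counts in all, and 0 counts of these 3 members.

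The pccB of L.bacterium335 averaged 494 ± 252 total CPM at 2.5%, against 0.581 ± 1.66 at 0% (SD, n = 10), given with no test for its 4 counts at 0%. That of Acetatifactor averaged 61.1 ± 33.9, against 1.86 ± 2.76, also given with no test for its 18 counts at 0%. The scpA of L.bacterium335 averaged 14.1 ± 8.23 total CPM at 2.5% and was at 0 in every 0% library. The scpA of F.rodentium went the other way: it reached 22.4 ± 20.4 total CPM at 2.5%, against 121 ± 53.0 at 0% (permutation test, adjusted p = 0.000304), with 0 of 10 libraries above the 0% mean. At 0.5% it averaged 166 ± 26.98 (permutation test, adjusted p = 0.138), which passed only when adjusted over the 27 member tests alone (0.0443), and at 1% it averaged 83.0 (adjusted p = 0.2197).

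**Figure D4:**
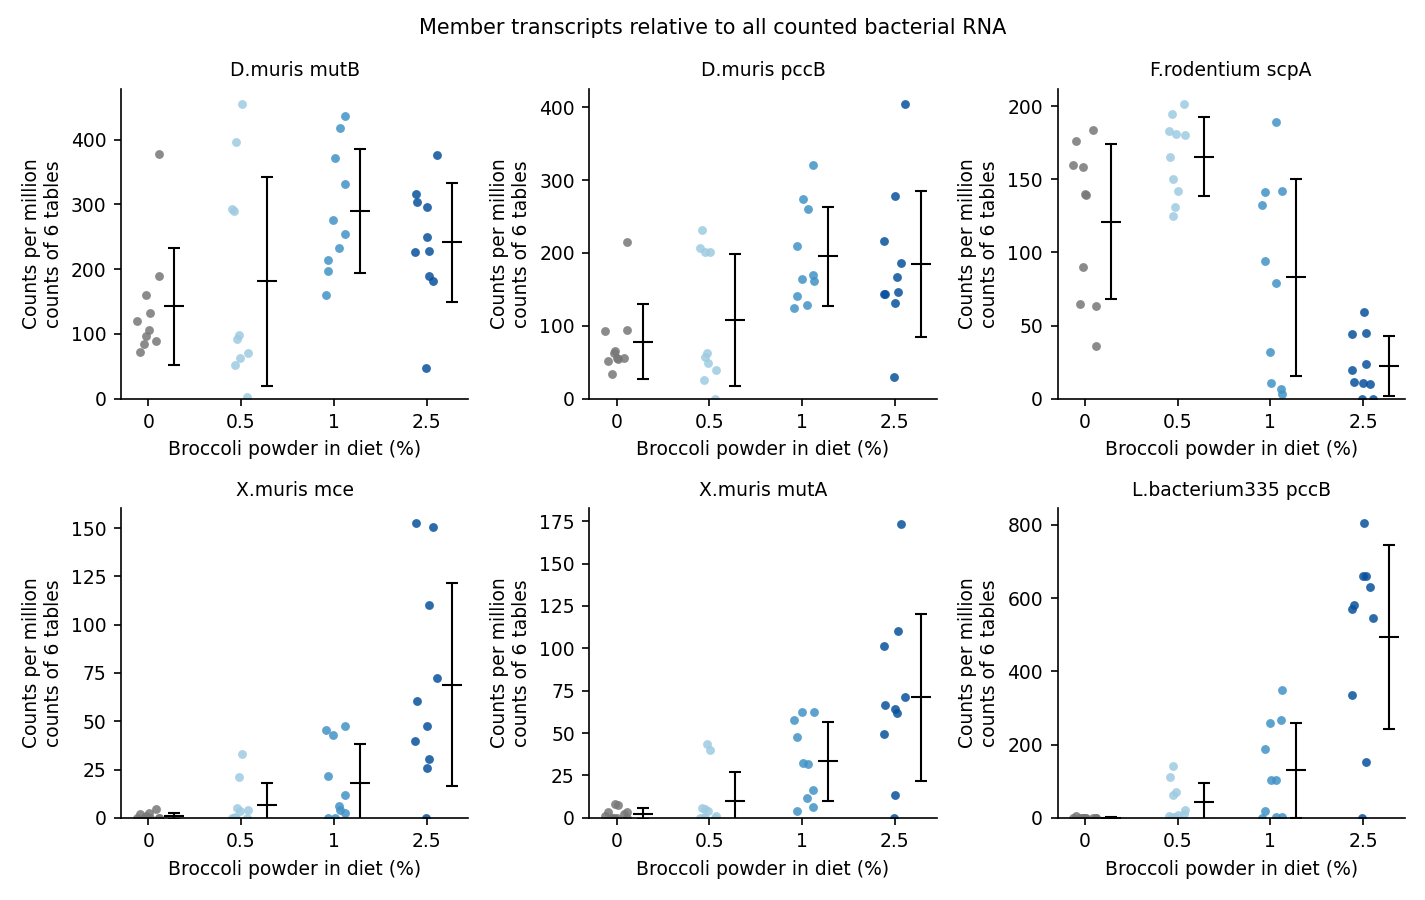
Counts of 6 members per 1000000 counts of all 6 tables (total CPM, y axis) in each of the 40 libraries, by percent broccoli powder (x axis), with the mean ± SD of 10 libraries beside the points and error bars drawn from 0. At 2.5%, scpA of F.rodentium lies at or below 59.3, and mce and mutA of X.muris and pccB of L.bacterium335 lie above 0 in all libraries but replicate 9.

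Whether 1 symbol responded differently in different bacteria was tested in libraries kept in both genomes, as the difference of log2 CPM between the bacteria, and 9 of 12 such differences passed, of which 5 rest on the pccB of L.bacterium335. For pccB, Acetatifactor minus D.muris gave 0.53, 2.43 and 2.58 at 0.5%, 1% and 2.5% (permutation test, adjusted p = 0.542, 0.000953 and 0.00118). The pccB of Acetatifactor had 0 counts in 6 of 10 libraries at 0% and passed the low-count filter through the broccoli groups. These tests are thus not given as support. The 5 with L.bacterium335 are given as values with no test. Its pccB had 0 counts in 8 of 10 libraries at 0%, and the prior count sets the size of its change. D.muris minus L.bacterium335 gave -5.30, -4.31 and -6.38 at 0.5%, 1% and 2.5%, and Acetatifactor minus L.bacterium335 gave -4.44, -1.80 and -3.09. The medians of all features differed between these genomes in the same directions, with 0.08 in D.muris, 1.81 in Acetatifactor and 7.94 in L.bacterium335 at 2.5%, and their part in these differences was not tested. The symbol scpA is ambiguous, so its rows in F.rodentium and X.muris may not be the same gene. For scpA, F.rodentium minus X.muris gave 0.50, -1.29 and -0.96 (permutation test, adjusted p = 0.543, 0.0191 and 0.0197). The last pair lost both calls with RLE factors (adjusted p = 0.0911 and 0.228), and the one at 2.5% also without replicate 5, 7 or 8 of that dose (up to 0.0629). The falls and rises of mutB and mce, being different symbols, were not tested against each other.

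Members of 1 genome were also compared with each other, a test added after the values were seen. The log2 ratio of mutB to pccB in D.muris averaged 0.44 ± 0.41 at 2.5% and 0.83 ± 0.32 at 0% (SD, n = 9 each), lower than the 0% mean in 7 of 9 libraries. The difference of -0.39 had an exact permutation p of 0.0400 and an adjusted p of 0.392 over 12 tests. None of the 12 permutation tests passed, with 1 at an unadjusted p under 0.05, so a different response of mutB and pccB, or of mce and mutA, was not shown.

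The other genes of propionate synthesis, listed by symbol, were not called in D.muris at any single dose. Of 9 listed, 8 were tested, and edgeR called 0 at 0.5%, 1% or 2.5%. At 0.5% and 1%, 0 had an unadjusted p under 0.05 and DESeq2 called 0, while at 2.5% 3 had one and DESeq2 called 2 of them, frdA and pckA. Of all D.muris features, edgeR called 4.96% at 0.5% and 6.23% at 1% in either direction. At 2.5% it called 3.88% higher and 6.68% lower, so 0 of 8 says little about these genes. The fumarate reductase gene frdA had a change of 0.40 ± 0.16 (edgeR, adjusted p = 0.101), and pckA, for the phosphoenolpyruvate carboxykinase that makes oxaloacetate, 0.36 ± 0.15 (adjusted p = 0.117). The decarboxylase subunit gene gcdB had -0.42 ± 0.17 (edgeR, adjusted p = 0.109). The epimerase gene epi, the D.muris counterpart of mce by name, had -0.30 ± 0.32, with levels from 399 to 750 CPM at 2.5% and from 0 to 1915 CPM at 0%. Over the dose series pckA alone was called, with a slope of 0.18 ± 0.06 per percent broccoli (edgeR, adjusted p = 0.0368), beside 8.3% of all features. That call was lost with a minimum of 50000 counts, under the 50% rule on features, with the genome total as a covariate (adjusted p up to 0.843), and without replicates 1, 3 or 7 at 0% or 2, 5, 6 or 7 at 2.5% (up to 0.0824). Its level ran from 4820 to 7923 CPM at 2.5%, with a median of 6153, and from 3367 to 6225 CPM at 0%, with a median of 5028. The median change of the 8 genes at 2.5% was -0.15, beside 0.08 for all features.

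**Figure D5:**
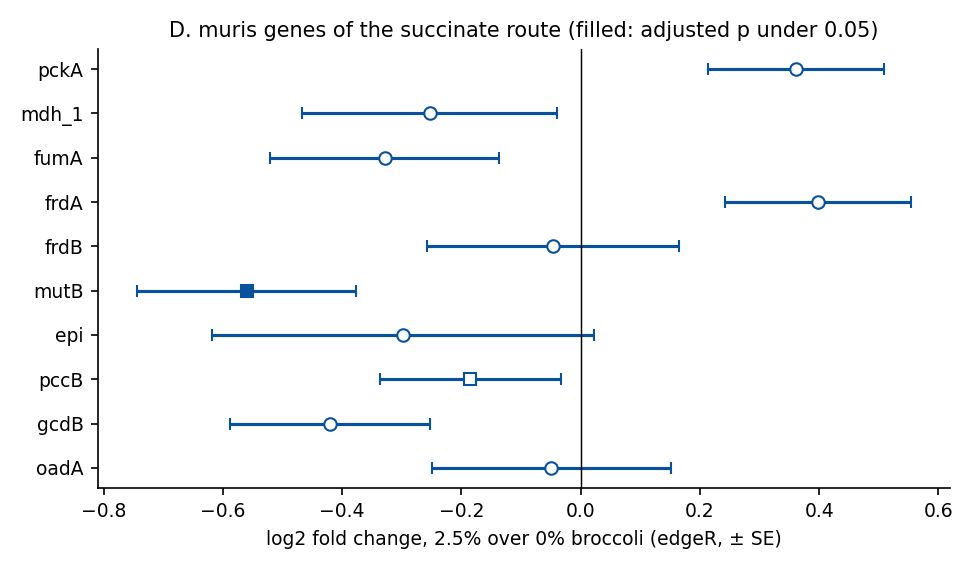
Log2 fold change (x axis, edgeR, ± SE) at 2.5% over 0% broccoli for D.muris genes of propionate synthesis. Genes of the succinate route run from pckA at the top down to pccB. The decarboxylase genes gcdB and oadA are placed below them, not in route order. Squares are mutB and pccB, circles the listed genes, and filled symbols have an adjusted p under 0.05. Only mutB, at -0.56, is filled, and the others lie between -0.42 and 0.40.

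The same list gave fewer genes in X.muris and F.rodentium. In X.muris 1 of 2 could be tested, pckA, with a change of -0.32 ± 0.37 at 2.5% (edgeR, adjusted p = 0.632). In F.rodentium 2 of 3 were tested and 0 were called by edgeR or DESeq2 at any dose, 1 of them at an unadjusted p under 0.05 at 2.5%. These were fumC, a fumarate hydratase, at -0.44 ± 0.18 (edgeR, adjusted p = 0.118), and prpC, a 2-methylcitrate synthase of propionate breakdown, at -0.47 ± 0.26 (adjusted p = 0.238). Of all F.rodentium features, edgeR called 8.47% at 0.5% and 0.474% at 1% in either direction. At 2.5% it called 5.39% higher and 4.03% lower.

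In Acetatifactor 7 of 15 listed genes were tested. At 2.5%, 6 rose and 1 fell, where 54.5% of all features were called higher and 22.5% lower. At 1% 6 rose and at 0.5% 2 rose, where 67.8% and 25.1% of all features were called. The median change at 2.5% was 2.12 for the list and 1.81 for all features. Those that rose at 2.5% were sucD, of succinyl-CoA synthetase, at 3.61 ± 0.80, pduA_2, a microcompartment shell gene, at 2.39 ± 0.78, pckA at 2.12 ± 0.66, prpC_1 at 2.05 ± 0.71, gcdB at 1.92 ± 0.71, and sdhA, of succinate dehydrogenase. At 0%, sucD, pduA_2, prpC_1, gcdB and sdhA had 12, 17, 41, 15 and 2 counts. They passed the low-count filter through the broccoli groups, so their calls at any dose are not given as support. The sdhA gene had 399 counts at 2.5% and 2 at 0%, which is 32.4 times the level, with bounds of 8.90 and 268 from counting error. The oxaloacetate decarboxylase gene oadA fell by 1.33 ± 0.41 (edgeR, adjusted p = 0.00408), against the direction of its genome's median, but its direction turned with RLE factors (0.60, adjusted p = 0.0885). It also lost its call without the 5 most counted features (-0.52), with the genome total as a covariate (-0.76) and with only 2.5% and 0% in the fit (-0.08). For the slope 4 genes were called positive and 1, oadA, negative, beside 63.1% of all features, and none of these slopes kept its call with the covariate, with a minimum of 50000 counts or under the 50% rule.

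In L.bacterium335 4 of 6 listed genes were tested, 3 of which had 0 or 1 counts at 0% and so entered the fit through the broccoli groups, and their calls are not given as support. At 2.5% gcdB was at least 135-fold higher and fucO, a propanediol oxidoreductase, at least 80.5-fold higher than a floor of 3 counts over the 0% group. The oadA gene had 12284 counts at 2.5% and 1 at 0%. The pckA gene, with 38553 counts at 2.5% and 98 at 0%, rose by 5.35 ± 0.64, below the median of 7.94 in a genome where 77.8% of features were called higher. In Acetatifactor, too, listed genes with few counts at 0% passed the low-count filter through the broccoli groups.

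Cobalamin, the cofactor of the mutase, is taken up through btuB and made by cob and cbi genes. In D.muris 4 of 5 listed cobalamin genes were tested, all btuB copies, whose separate counts are uncertain. At 2.5%, btuB_1 had 0.78 ± 0.66, btuB_2 -0.88 ± 0.57 and btuB_3 -1.19 ± 0.59, none of them called, and btuB_4 rose by 1.10 ± 0.35 (edgeR, adjusted p = 0.0354). Of all D.muris features, 3.88% were called higher and 6.68% lower at this dose. The call of btuB_4 was lost with the genome total as a covariate (adjusted p = 0.573), with only 2.5% and 0% in the fit (0.0753), with no minimum of counts (0.0565) and in 8 of 40 fits that left out 1 library, with replicates 3, 6, 7 and 10 at 0% and 2, 3, 5 and 8 at 2.5% (up to 0.0795). The slope of btuB_4 was 0.37 ± 0.12 (edgeR, adjusted p = 0.0470), beside 8.3% of features called. That slope lost its call in 5 of 9 other settings and in 19 of 40 fits that left out 1 library. In F.rodentium the only listed gene, cobB, a symbol also used for a protein deacylase, fell by 0.88 ± 0.26 at 0.5% (edgeR, adjusted p = 0.0271) and had a change of -0.87 ± 0.29 at 2.5% (adjusted p = 0.0485). Of all F.rodentium features, 8.47% were called in either direction at 0.5%, and 5.39% higher and 4.03% lower at 2.5%. The 0.5% call of cobB was lost without libraries 76 to 81 (edgeR, adjusted p = 0.117) and without replicate 2 or 6 at 0% or 2, 6 or 8 at 0.5% (up to 0.0728). The 2.5% call was lost in 5 of 10 other settings and 22 of 40 fits that left out 1 library (up to 0.143), namely replicates 2, 4, 5, 6 and 7 at 0%, 1, 2, 4, 6 and 10 at 0.5%, 1, 3, 4, 5, 7, 9 and 10 at 1%, and 1, 2, 3, 5 and 10 at 2.5%. L.bacterium335 had 16 listed, of which 2 passed the filter, again through the broccoli groups: cobB_1 had 618 counts at 2.5% and 0 at 0%, and cobB_2 had 1095 and 1. Acetatifactor had 3 listed and 0 tested, and X.muris listed 0.

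The features whose levels followed the members most closely, once the diet group means were removed, are given as a description, over libraries that also share their depth. For mutB of D.muris they were icmF, for the cobalamin-dependent isobutyryl-CoA mutase fused to its chaperone, with Pearson r of 0.61, gdhB with 0.58 and hutH, for histidine ammonia-lyase, with 0.54. These were the highest of 316 candidates over 37 libraries, whose median r was 0.01, and pccB followed mutB with r of 0.53. For mce of X.muris they were metG, topA and rplB, with r of 0.73, 0.70 and 0.67, and for mutA dxs, rpsB and rplE, with 0.66, 0.65 and 0.63, among 94 candidates over 33 libraries with median r of 0.36 and 0.23. Within X.muris, mce and mutA had an r of -0.08, mce and scpA of 0.33, and mutA and scpA of 0.61.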

How the data were processed

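The authors deposited 6 tables of raw counts, with features in rows, 1 table for each bacterium. Per the labels' protocols, RNA of cecal contents was depleted of ribosomal RNA and made into libraries with the KAPA RNA HyperPrep kit. Aligner and counting rules were not given in the sources used here, and only the Acetatifactor and Alistipes tables are named by a genome assembly. Columns matched the 40 libraries by name, and 0 columns belonged to samples outside the series. Groups came from the treatment label, and replicate numbers only follow sample order. The labels do not say that each library is a separate mouse, so p-values measure the spread between libraries.

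Each genome was fitted alone in R 4.3.3 with edgeR 4.0.16 (quasi-likelihood test, TMM factors, filterByExpr, all 4 groups in 1 fit, Benjamini-Hochberg over all tested features), after 5 stable RNA features of X.muris were left out. The libraries kept at 0%, 0.5%, 1% and 2.5% numbered 9, 9, 10 and 9 in D.muris, 7, 7, 10 and 9 in X.muris, 10, 10, 10 and 8 in F.rodentium, and 10 in every group of Acetatifactor and L.bacterium335. Two-sided permutation tests used 100000 resamples, or were exact below 10 libraries per group. Total CPM was tested for all features with at least 100 counts, 9 members among them, with p-values adjusted over all of them within a dose, an adjustment added after the values were seen, and log2 CPM used a prior count of 2. Intervals and floors of counts cover counting error only. The scripts were tested on simulated data. No 2 libraries of a group agreed within sampling noise (180 pairs, smallest chi-square per degree of freedom 10.6).

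Members, gene lists and tests were chosen with earlier results of these data known. Every member was named, as was each called gene of the 2 lists, and for mutA, mutB and mce the 3 features of highest correlation. Alternatives were RLE factors, DESeq2 1.42.0, other filters and library minimums, the genome total as a covariate, fits without the most counted features or without libraries 76 to 81, whose label numbers stand apart, and each library left out in turn.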

Additional observations from a re-analysis of the deposited data

Results flagged for a closer look

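Of 32 groups of CPM values checked, 2 had 1 library far from the others, and chance flags about 1 in 20 groups. The pccB of L.bacterium335 reached 46.6 CPM in 0% replicate 3, with the next library at 7.35 CPM. The scpA of X.muris reached 783 CPM in 0% replicate 7, with the next at 391 CPM.

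A test of whether 1 symbol responded differently in different bacteria passed in 9 cases, each as log2 CPM. The medians of all features also differed between these genomes, and their part was not tested. For pccB, Acetatifactor minus D.muris gave 2.43 at 1% and 2.58 at 2.5%, and Acetatifactor minus L.bacterium335 gave -4.44 at 0.5% and -3.09 at 2.5%. D.muris minus L.bacterium335 gave -5.30 at 0.5%, -4.31 at 1% and -6.38 at 2.5%. The 5 cases with L.bacterium335 rest on 4 counts of its pccB at 0%, so the prior count sets their size and their tests support nothing. The pccB of Acetatifactor also had few counts at 0%, so its cases against D.muris are not given as support. For scpA, F.rodentium minus X.muris gave -1.29 at 1% and -0.96 at 2.5%, and both calls were lost with RLE factors (permutation test, adjusted p = 0.0911 and 0.228). The scpA rows of these bacteria may not be the same gene.

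The table of Alistipes, which the comparisons do not use, also held 2 genes of these symbols above their level in 0% libraries. Its mutB averaged 25.3 total CPM at 2.5% and 0.589 at 0%, from 251 and 5 counts. Its pccB averaged 32.6 total CPM at 2.5% and 3.63 at 0%, from 301 and 20 counts. The whole table rose as well, with a median Alistipes total of 132 counts per library at 0% and 11216.5 at 2.5%. Both rises thus say little about these genes themselves. No Alistipes library at 0% had enough counts to be kept, so a change within this genome was not tested.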

How the results depend on the processing

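Of the values recomputed, 471 of 569 under other settings and 3775 of 3960 with 1 library left out had the direction and side of the threshold first found, or a count within 1.5 times of it. No paired analysis was possible because the labels give no replicate numbers that match across diets. D.muris mutB at 2.5% lost its call with DESeq2 (-0.44), without a low-count filter (-0.45), with libraries that had counts on at least 50% of the features (-0.56), without the 5 most counted features (-0.53), with the genome total as a covariate (-0.30) and without libraries 76 to 81 (-0.52), and ran from -0.59 to -0.47 with 1 library left out. X.muris mce at 2.5% lost it with RLE factors (1.42), the covariate (0.63) and without libraries 76 to 81 (1.65), and ran from 1.46 to 1.96. RLE factors gave a median change of all features at 2.5% of 3.84 in Acetatifactor, 9.20 in L.bacterium335, 0.25 in X.muris and 0.12 in F.rodentium, where TMM gave 1.81, 7.94, 0.51 and 0.01. Members called at 0.5% numbered 2 with RLE factors, 0 under the 50% rule and 0 with only the dose group and 0% in the fit. At 1% they numbered 1 with a minimum of 50000 counts, 0 under the 50% rule and 0 with only 2 groups in the fit, and at 2.5% 1, 0 and 2, with 1 under the covariate and 2 without libraries 76 to 81. Called slopes numbered 5 with DESeq2, 0 with 50000 counts, 0 under the 50% rule, 1 without the top 5 features, 0 with the covariate and 1 without libraries 76 to 81. Leaving out 1 library gave 2 to 4 members called at 2.5% and 1 to 3 slopes. Called slopes of the propionate list numbered 7, and 2 to 9 with 1 library left out, 16 with DESeq2, and 0 with 50000 counts, the 50% rule or the covariate. Called cobalamin genes at 2.5% numbered 4, and 2 to 4, 7 with DESeq2, 14 without a filter, 2 with the covariate and 0 in fits of 2 groups. The settings did not test the same genes, so these counts are not directly comparable. Calls over all features moved as well. In X.muris, DESeq2 called 242 slopes higher and 10 lower of 1456, where edgeR called 31 and 18 of 670. With the covariate, edgeR called 0 of 1108 slopes in D.muris and 0 of 1384 in L.bacterium335. In Acetatifactor it then called 2 higher and 25 lower of 773. The shifts thus say little about the members or lists themselves. DESeq2 gave an adjusted p to the slopes of 14 listed propionate genes of Acetatifactor, where edgeR tested 7. Without a filter, 2690 of 4240 L.bacterium335 features were called higher at 2.5% and 562 lower, in place of 1077 and 208 of 1384. Differences between bacteria could not be tested with 50000 counts, a level that no 0% library of D.muris, X.muris or Acetatifactor reached. Leaving out 1 library gave 1 to 2 members passing at 0.5% in total CPM, adjusted over the 27 member tests. At 2.5%, the 50000 minimum left 2 members that could be tested, the 50% rule 3 and fits of 2 groups 6. The 50% rule keeps 0 of the 0% libraries in Acetatifactor and L.bacterium335 and 1 in X.muris, and in fits of 2 groups the filter removed pccB of both, while other causes were not tested.

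Directions turned for X.muris scpA at 0.5% with RLE factors (-0.17) and without libraries 76 to 81 (-0.011), F.rodentium scpA at 1% without them (-0.013), the Acetatifactor pccB slope with 50000 counts (-0.088) and the 50% rule (-0.13), the D.muris pccB slope with 50000 counts (0.0027) and the covariate (0.031), that gene at 2.5% with the covariate (0.041), and the X.muris mutA slope with 50000 counts (-0.041). On the log2 scale of 6 tables D.muris mutB and pccB at 0.5% gave -0.31 and -0.27, and mce minus scpA at 1% gave 0.22 with a prior count of 0.5. With 1 library left out, F.rodentium scpA at 1% ran from -0.069 to 0.11, X.muris scpA at 0.5% from -0.10 to 0.79 and mce minus scpA at 1% from -0.54 to 0.30. At 0% only 14 mce and 18 mutA counts stand behind the X.muris folds, which limits their precision.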
